A study of Canis lupus familiaris with 12 samples.

Results

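Snail and E47 are transcription factors of different families that both repress CDH1, the gene of E-cadherin, and turn epithelial cells into motile, fibroblast-like ones, a change known as epithelial-mesenchymal transition (EMT). Snail, the product of SNAI1, is a zinc finger protein, and E47, a product of TCF3, is a basic helix-loop-helix protein; both bind E-box sequences. E47 is held in check by the ID proteins, which have a helix-loop-helix but no DNA-binding region and pair with E proteins to keep them off DNA. The comparison described here asks which genes separate cells carrying one of these repressors from cells carrying the other.

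The material was total RNA of MDCK cells, an established dog kidney epithelial line, transfected with Snail or with E47. Each RNA was hybridised together with RNA of the MDCK-CMV control on a 2-colour cDNA array that carries clones of cancer-related human genes, so dog RNA was read on human sequences. The comparison uses the 8 arrays titled Snail or E47, of 12 arrays in the series; the 4 arrays of the Slug transfectant enter only the estimate of the spread. Samples 1 and 2 of a transfectant were each hybridised once with their own RNA in Cy5 and once with it in Cy3, which gives 4 arrays and 2 replicate values per transfectant. The labels do not say whether a transfectant was 1 clone or a pool of cells, and they do not say that samples 1 and 2 were grown separately, so p-values reflect the spread of these samples alone, which may be technical. With 2 replicates against 2, the smallest p of an exact two-sided permutation test would be 0.333. Every p given here comes from limma. The main fit covered 3617 genes, and each alternative covered the genes it could test, from 3581 to 4058. Only ratios were deposited: levels, signal over background and the identity of the cells by their markers cannot be read from them, and fewer cells of a kind and less RNA per cell cannot be told apart.

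The direction of each ratio is an assumption. The labels give the dye of each RNA but not which channel is the numerator, and as deposited the arrays of one transfectant ran against each other: the Snail 1 and Snail 2 arrays titled Cy5 correlated at -0.59 and the E47 1 and E47 2 arrays titled Cy5 at -0.61 over probes. Both arrays of Snail 2 and the Cy5-titled array of E47 2 were therefore multiplied by -1. Both arrays of Slug 1 were multiplied by -1 as well, so the spread from the Slug replicates also rests on assumed signs. After this, all 8 correlations between sample 1 and sample 2 of a transfectant lay between 0.373 and 0.609, the 2 arrays of a sample correlated between 0.264 (E47 1) and 0.74 (E47 2), and the 16 correlations between a Snail and an E47 array had a median of 0.228, with 15 above 0. Which end of each transfectant's scale is the transfectant was then set from CDH1, taken to lie below the control; these signs were chosen after the values had been seen, and a low CDH1 is no finding. If both transfectants were turned, every "higher" below would read "lower"; if only E47 were turned, the difference would become a sum, and that value is given beside the leading results as the sum of the log2 ratios. All values are log2 ratios of transfectant over control in the assumed direction, and array values are given in the order sample 1 titled Cy3, sample 1 titled Cy5, sample 2 titled Cy3, sample 2 titled Cy5.

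**Figure D1:**
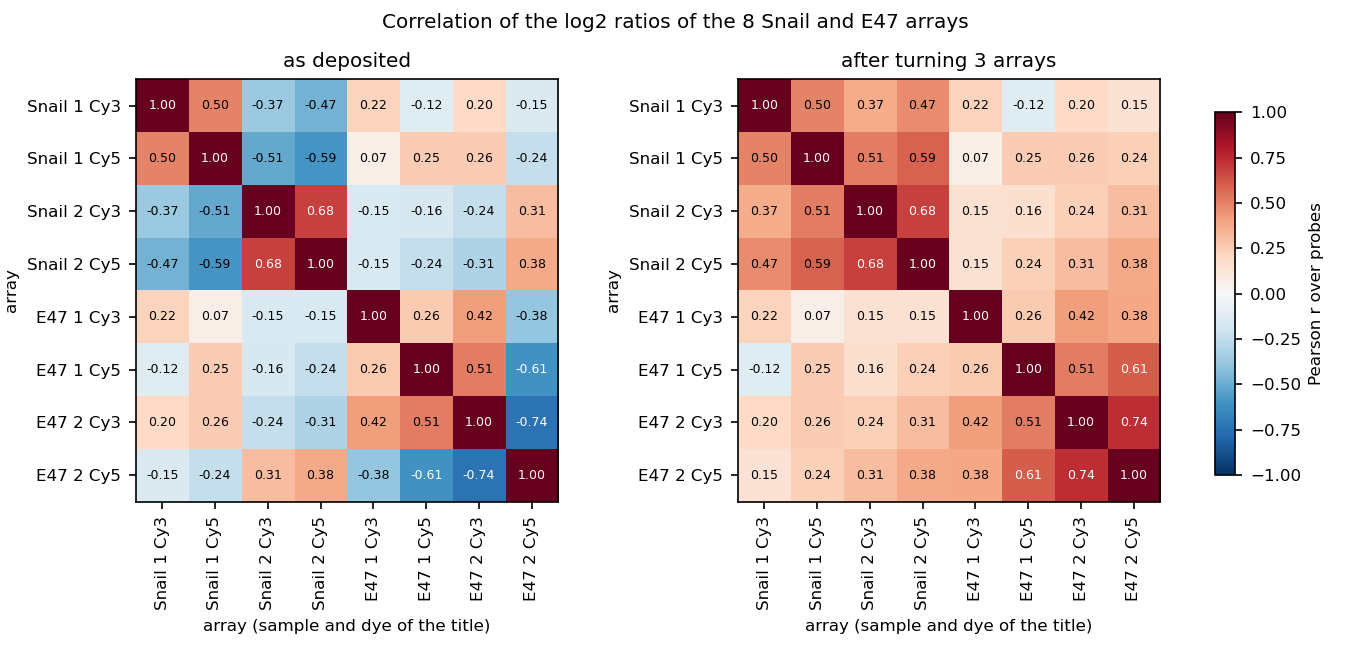
Pearson correlation over probes between each pair of the 8 Snail and E47 arrays, as deposited (left) and after 3 arrays were turned (right); colour and printed number both give r. As deposited, 6 of the 8 correlations between sample 1 and sample 2 of a transfectant lay below 0, and after turning none did.

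Of 3617 genes tested, 128 (3.54%) differed between the transfectants at adjusted p under 0.05, and most of them were lower in Snail: 116 genes (3.21%) were lower in Snail than in E47 and 12 (0.332%) were higher. GAS1, HDGF, ITGA6, MYC and DSP were among those lower in Snail, and LUM, TNFSF10 and PLAU among those higher. Differences of at least 2-fold were found for 75 of the lower and 7 of the higher genes, and the smallest difference called was 0.75 on the log2 scale. Over all genes tested the median difference was -0.07, with Snail lower for 59.9%. The imbalance was smaller at limma's unadjusted p under 0.05, where 216 of 748 genes were higher in Snail. The share of calls lower in Snail was 90.6% without further scaling of the turned ratios, 84.8% after each array was centred on its median, 71.2% after arrays were scaled to 1 spread and 74.9% after quantile normalization.

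The 4 Snail arrays and the 4 E47 arrays did not overlap for 124 of the 128 genes, against 727 (20.1%) of all genes tested. Measured against the control, 70 of the 128 genes (54.7%) lay on opposite sides of it on all 8 arrays, 63 of them below the control in Snail and above it in E47, compared with 234 (6.47%) of all genes tested. The 128 were called for their difference, so this share only describes them, and it rests on the relative sign of the transfectants: with E47 turned, the 70 would lie on the same side of the control, and 46 of the 128 were still called. A further 17 stood above the control on all E47 arrays with Snail arrays on both sides of it, and 23 stood below it on all Snail arrays with E47 arrays on both sides. Both transfectants lay on 1 side of the control for 12 genes (9.38%), 8 above it and 4 below.

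The count depended on each single replicate. It was 14 without Snail replicate 1 or without Snail replicate 2, 48 without E47 replicate 1 and 6 without E47 replicate 2, and it was 201 when Snail and E47 alone were fitted, as it was without Slug replicate 1 or without Slug replicate 2. DSP, GAS1, HDGF and ITGA6 were called with each Snail and E47 replicate left out in turn. The other 39 of the 43 called genes chosen for naming lost their call without at least 1 replicate (38 without E47 replicate 2, 35 without Snail replicate 1, 34 without Snail replicate 2 and 20 without E47 replicate 1); all 43 kept their sign. From the arrays titled Cy3 alone, GAS1 was called but DSP, HDGF and ITGA6 were not. With the E47 arrays turned, 411 genes were called, 187 with a sum above 0 and 224 below.

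**Figure D2:**
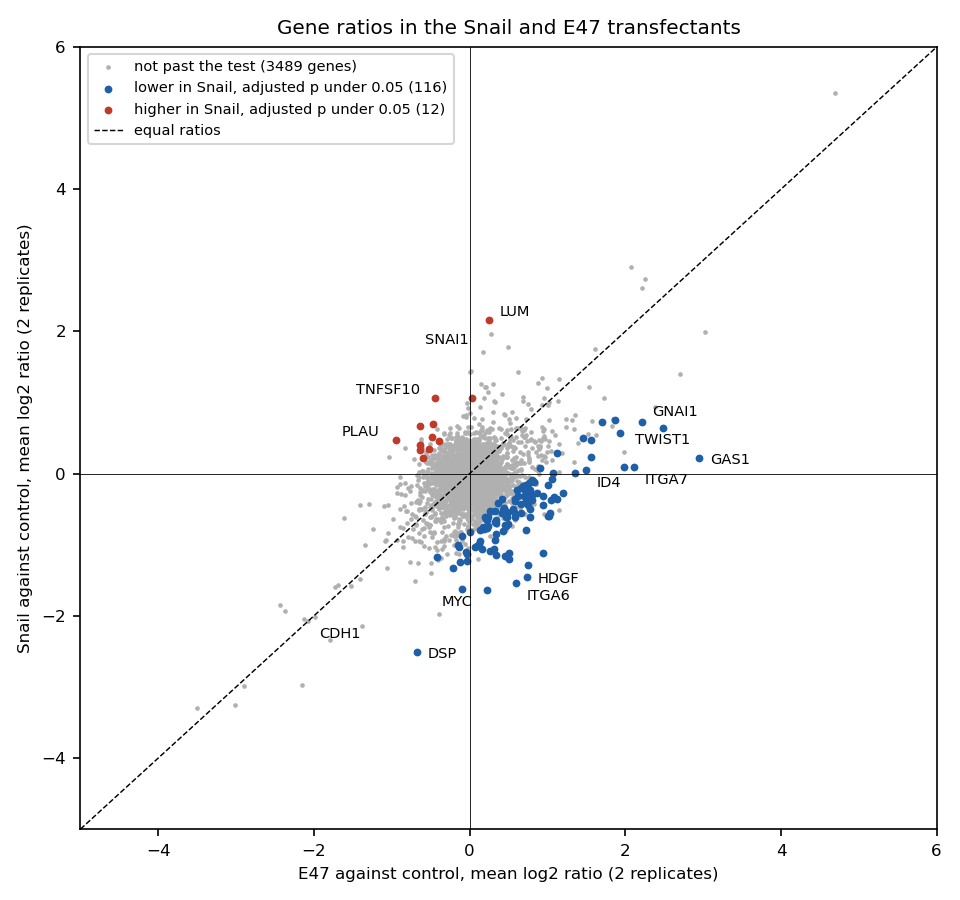
Mean log2 ratio of 2 replicates against control in Snail (vertical) and E47 (horizontal), 1 point per gene; red points were higher and blue points lower in Snail at adjusted p under 0.05, and the dashed line marks equal ratios. Of the 116 blue points, 63 lie below the control on every Snail array and above it on every E47 array. CDH1, from which the signs were set, lies on the line.

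The transfected factors and their own gene family came first among the genes reported whatever their result. SNAI1 read 1.20, 0.87, 1.80 and 2.94 on the Snail arrays and 0.11, 0.28, -0.09 and 0.40 on the E47 arrays, so all Snail arrays lay above all E47 arrays. Its difference was 1.53 ± 0.36 (SE, 2 replicates in each), with an adjusted p of 0.0558. TCF3, the gene of E47, read 0.06, 0.19, -0.42 and -0.04 in Snail and 0.77, 0.87, 0.60 and 0.60 in E47.

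The TCF3 arrays did not overlap either, with the E47 arrays on the high side. The difference was -0.76 ± 0.19 with an adjusted p of 0.0646. Neither gene passed the threshold over all genes; SNAI1 did so after quantile normalization (0.0142) and in 4 other settings that kept the signs and all replicates, and TCF3 after quantile normalization (0.0363). Under the assumed signs the Slug replicates also read above the control for both genes, 0.70 and 0.64 for SNAI1 and 1.12 and 1.11 for TCF3, the latter above the E47 replicates (0.82 and 0.60). Whether these clones bind the RNA of the introduced genes is not stated, and a TCF3 clone does not separate E47 from other products of the gene.

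CDH1 was not told apart between the transfectants under the assumed signs. Those signs were set from CDH1 itself, so its place on the same side of the control in both is no finding. With E47 turned the sum of its ratios was -4.15. CDH1 read -1.94, -2.30, -1.49 and -2.56 in Snail and -1.28, -2.30, -2.55 and -2.16 in E47, and the 2 sets of arrays overlapped. The difference was 0.000654, with a 95% interval from -0.49 to 0.49 and an adjusted p of 0.999, and a difference within that interval in either direction would not have been seen. Of the 3 CDH1 clones, 2 lay far below the control (-2.88 and -3.57 in Snail, -2.74 and -3.77 in E47), and the third lay near it in both (0.23 and 0.29). The interval is for the average of all 3 clones, and the 2 low clones differed by -0.13 and 0.20.

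Among the other EMT transcription factors on the array, TWIST1, a basic helix-loop-helix factor, read 0.27, 0.26, 0.33 and 0.36 in Snail and 0.83, 1.58, 2.71 and 2.83 in E47. All E47 arrays lay above all Snail arrays, but the 2 E47 replicates were far apart (1.21 and 2.77). The difference was -1.68 ± 0.45, with an adjusted p of 0.0752. ZEB1, a zinc finger repressor of CDH1, stood at 0.47 in Snail and 0.55 in E47 (difference -0.08, 95% interval -0.66 to 0.50). TCF4, the gene of another E protein, stood at 1.20 and 1.00 (0.20, interval -1.12 to 1.52). The Slug replicates of TCF4 were far apart (3.15 and 1.08) and enter the spread behind that interval. None of the 6 tested members of the list of EMT transcription factors passed limma's test, 3 had an unadjusted p under 0.05, and their median difference was -0.17. Over all genes, limma called 3.54%, and 748 of 3617 had an unadjusted p under 0.05.

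The inhibitors of helix-loop-helix factors and their partners formed the list with the lowest median. Of 12 members tested, 5 (41.7%, beside 3.54% called over all genes) were lower in Snail than in E47 and none was higher. The 5 were ID2, ID3, ID4, BHLHE40 and MYC. The median difference was -0.78, beside -0.07 over all genes. The lists were chosen with earlier results of these data known, so such shares only describe them. Under centring, scaling and quantile normalization the list's median lay between -0.70 and -0.79, with 4 to 6 members lower. With 1 replicate left out the median lay between -1.42 and -0.49, with 7 members lower without E47 replicate 1, 1 without Snail replicate 1, and 0 without Snail replicate 2 or without E47 replicate 2. With the E47 signs turned its median became 0.43, with 4 members called above 0 and 1 below.

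ID4 read -0.04, 0.35, -0.01 and -0.09 in Snail and 1.17, 1.17, 1.69 and 1.95 in E47. The Snail arrays lay around the control and the E47 arrays well above it, a difference of -1.44 ± 0.23 (adjusted p 0.0200), or 2.72-fold. ID3 read -0.05, 0.46, 0.21 and 0.30 in Snail and 0.93, 1.37, 2.02 and 1.92 in E47, a difference of -1.33 ± 0.26 (adjusted p 0.0341). ID2 ran from -0.19 to -0.02 on the Snail arrays and from 0.55 to 1.42 on the E47 arrays, a difference of -1.13 ± 0.24 (adjusted p 0.0414). ID1 showed the same order of arrays, -0.53 to 0.12 against 0.19 to 1.28, and missed the threshold (-1.01 ± 0.24, adjusted p 0.0558).

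All 4 ID genes stood near the control in Snail and above it in E47, and each was higher in E47 replicate 2 than in replicate 1 (for ID3, 1.97 and 1.15). After each array was centred on its median the adjusted p of ID2 was 0.0581. Without E47 replicate 2 the adjusted p of ID2, ID3 and ID4 was 0.227, 0.173 and 0.131. The clones of ID2 differed in size, at -1.13, -0.58 and -1.68, and those of ID4 at -1.69 and -1.19. With the E47 signs turned, the sums were 0.99 for ID2, 1.79 for ID3 and 1.54 for ID4, close in size to the differences because Snail lay near the control.

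BHLHE40, a basic helix-loop-helix repressor, ran from -0.22 to 0.16 in Snail and from 0.98 to 1.74 in E47, a difference of -1.35 ± 0.25 (adjusted p 0.0283). MYC, a basic helix-loop-helix factor that drives growth, showed another pattern. It read -0.98, -1.50, -1.90 and -2.13 in Snail and 0.20, 0.25, 0.17 and 0.28 in E47, so the E47 arrays stood slightly above the control and the Snail arrays far below it. The difference was -1.85 ± 0.25 (adjusted p 0.0119, and 0.0681 without E47 replicate 2), its 2 clones gave -1.59 and -2.11, and the sum with E47 turned was -1.41. Of the list's members that did not pass, CDKN1A, an inhibitor of cell cycle kinases and a known target of E proteins, had E47 replicates of -0.34 and 1.74 and a difference of -0.55.

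**Figure D3:**
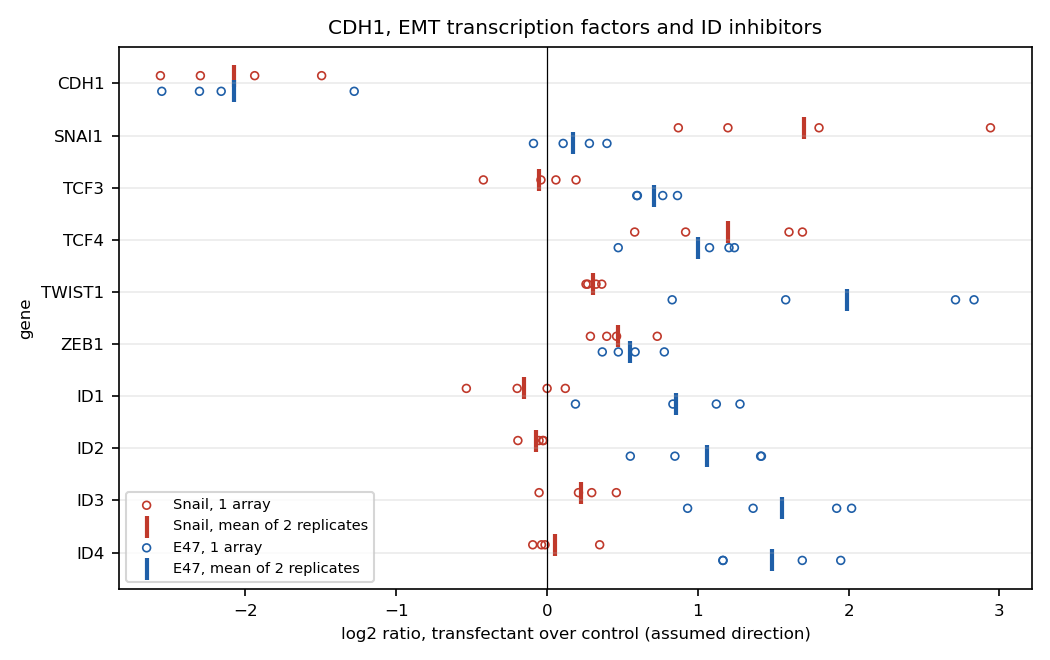
Log2 ratios on each of the 4 Snail (red) and 4 E47 (blue) arrays for CDH1, the EMT transcription factors named in the text and the ID genes; circles are arrays and bars the mean of 2 replicates. CDH1, ZEB1 and TCF4 overlap, while ID1 to ID4, TCF3 and TWIST1 lie higher on every E47 array and SNAI1 higher on every Snail array.

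The largest difference of all called genes was that of GAS1, which encodes a membrane protein linked to growth arrest. GAS1 read 0.24, 0.14, 0.26 and 0.24 in Snail and 3.48, 2.92, 2.94 and 2.47 in E47. Snail lay close to the control on every array and E47 far above it. The difference was -2.73 ± 0.21, or 6.66-fold, with an adjusted p of 0.00238, and it lay between -2.99 and -2.48 with any 1 replicate left out. The 2 GAS1 clones gave -3.16 and -2.31, and the sum with E47 turned was 3.17. CXXC5, a CXXC-type zinc finger protein, had a similar pattern, with 0.14 to 0.90 in Snail and 2.07 to 2.81 in E47 (-1.84 ± 0.28, adjusted p 0.0164). GNAI1, an inhibitory G protein subunit, stood at 0.73 in Snail and 2.21 in E47 (-1.49 ± 0.21, adjusted p 0.0157). All 3 of these genes read above the control on every array of both transfectants.

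HDGF, a growth factor that binds heparin, read -1.49, -1.73, -1.24 and -1.34 in Snail and 0.69, 0.59, 0.84 and 0.85 in E47. The transfectants lay on opposite sides of the control, 2.19 ± 0.19 apart on the log2 scale, with Snail lower (4.57-fold, adjusted p 0.00293). With the E47 signs turned the sum was -0.71, so the size of this difference rests on the relative sign of the transfectants.

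ITGA6, the integrin chain that epithelial cells use to hold laminin, read -1.64, -1.54, -1.50 and -1.49 in Snail and 0.28, 0.62, 0.83 and 0.65 in E47. The Snail arrays were tightly grouped below the control, and the difference was -2.13 ± 0.21 (adjusted p 0.00442; sum -0.95). ITGA7, another laminin-binding chain, read 0.38, 0.27, -0.23 and -0.07 in Snail and 2.00, 1.63, 2.42 and 2.41 in E47. Here Snail lay around the control and E47 above it, a difference of -2.03 ± 0.27 (adjusted p 0.0117; 0.0825 without Snail replicate 2; sum 2.20). Of 17 tested members of the integrin and focal adhesion list these 2 (11.8%, beside 3.54% called over all genes) were lower in Snail and none was higher. The list's median was -0.37, and 0.27 with E47 turned.

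DSP encodes desmoplakin, which ties desmosomes to keratin filaments. It read -1.94, -2.83, -2.24 and -3.04 in Snail and -0.70, -0.56, -0.83 and -0.59 in E47. Both transfectants lay below the control, and Snail lay 3.58-fold lower than E47 (-1.84 ± 0.18, adjusted p 0.00442; sum -3.18). DSP was the only one of 13 tested members (7.69%, beside 3.54% over all genes) of the junction and polarity list that passed. The list's median of -0.06 was close to that of all genes. Of the members that did not pass, JUP, the gene of plakoglobin, another desmosomal protein, stood at -0.32 and -1.03 in the Snail replicates and at 0.33 and -0.08 in E47 (-0.80, adjusted p 0.117). PATJ, a scaffold protein of tight junctions, ran the other way, with 0.02 and 0.25 in Snail and -0.61 and -0.69 in E47 (0.79, adjusted p 0.183), and CTNNA1, the gene of alpha-catenin, had a difference of -0.63 (adjusted p 0.106).

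Of 12 keratins and markers of epithelial differentiation, SFN was the only one to pass (8.33%, beside 3.54% over all genes) and was lower in Snail. SFN encodes 14-3-3 sigma, an epithelial inhibitor of the cell cycle, and ran from -0.72 to -0.06 in Snail and from 0.42 to 1.15 in E47 (-1.17 ± 0.18, adjusted p 0.0164; 0.131 without E47 replicate 2). ANXA3, an annexin, was below the control in both, with replicates of -0.50 and -0.75 in Snail and -1.47 and -1.76 in E47 (0.99, adjusted p 0.0558). The median of this list was -0.08. None of the 10 mesenchymal and cytoskeletal markers tested passed limma's test, with 3 at an unadjusted p under 0.05 (median -0.09). Over all genes 748 of 3617 were under that unadjusted p, so these counts do not set the list apart. ENG, the gene of endoglin, had the largest difference at -1.05 (adjusted p 0.131), with Snail replicates of -0.07 and -1.17.

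**Figure D4:**
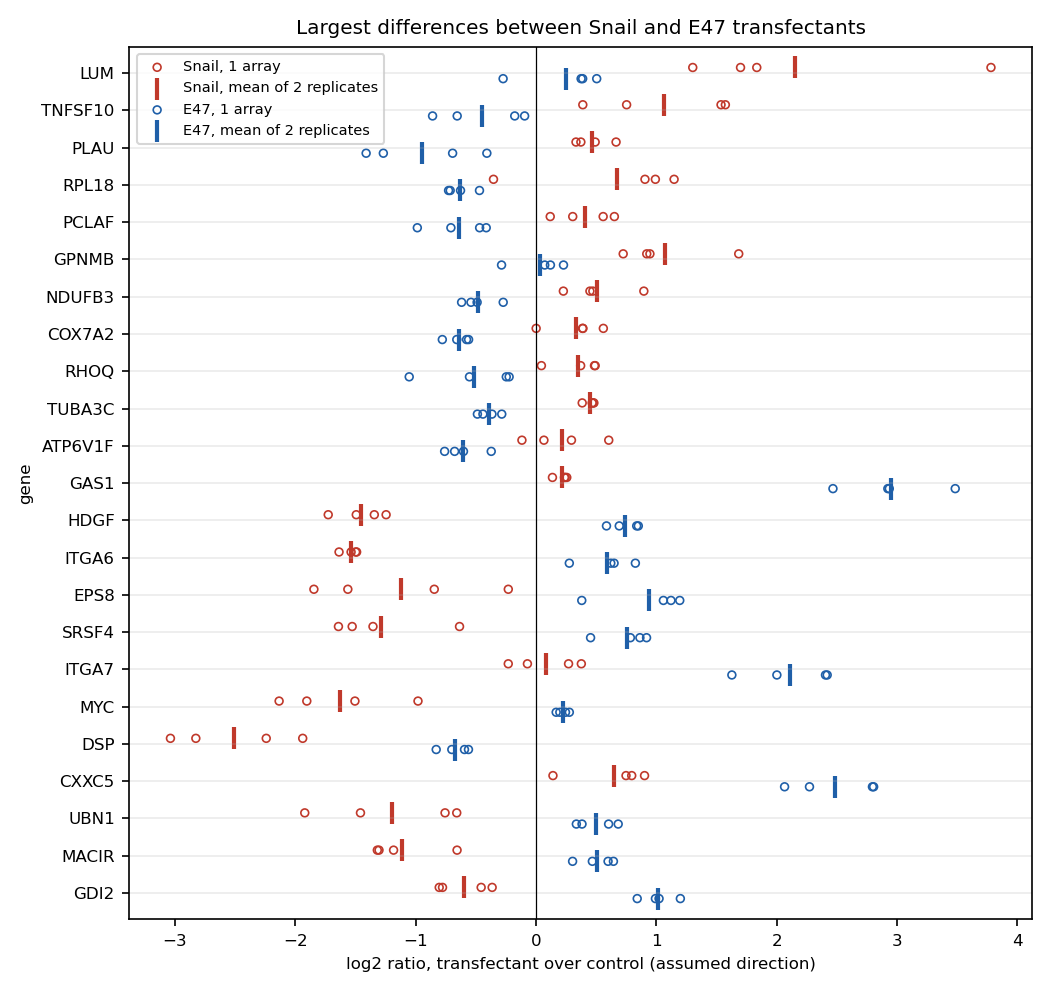
Log2 ratios on the 4 Snail (red) and 4 E47 (blue) arrays for the 11 called genes higher and the 12 lower in Snail with the largest differences among those whose arrays do not overlap; circles are arrays and bars the mean of 2 replicates. GAS1, ITGA7 and CXXC5 lie near or slightly above the control in Snail and far above it in E47, DSP lies below it in both, and the other 8 of the lower genes lie on opposite sides of 0.

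The remaining genes with the largest negative differences lay on opposite sides of the control on all 8 arrays. EPS8, an adaptor of growth factor receptors and actin, ran from -1.84 to -0.23 in Snail and from 0.38 to 1.20 in E47 (-2.06 ± 0.34, adjusted p 0.0226). SRSF4, a splicing factor, differed by -2.04 ± 0.23 (adjusted p 0.00818; 0.0539 without Snail replicate 2). UBN1, MACIR and GDI2 differed by -1.70, -1.62 and -1.61. GDI2 keeps Rab proteins in their inactive form, and UBN1 belongs to a histone chaperone complex. For these 5 genes the sums with E47 turned lay between -0.70 and 0.41, and none passed the threshold.

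The genes higher in Snail were fewer. LUM encodes lumican, a collagen-binding proteoglycan, and read 1.30, 1.84, 1.70 and 3.78 in Snail and -0.27, 0.39, 0.38 and 0.50 in E47. The Snail array titled Cy5 of sample 2 stood far above the others, and E47 lay near the control. The difference was 1.91 ± 0.35, or 3.75-fold, with an adjusted p of 0.0283 (0.116 without E47 replicate 2; sum 2.40, adjusted p 0.00388).

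PLAU encodes urokinase, a protease that activates plasmin and is known from invading cells. It read 0.67, 0.33, 0.49 and 0.37 in Snail and -0.41, -0.69, -1.41 and -1.27 in E47, a difference of 1.41 ± 0.26 (adjusted p 0.0274; 0.15 without E47 replicate 2). The transfectants lay on opposite sides of the control on all arrays, and the sum with E47 turned was -0.48. TNFSF10 encodes TRAIL, a ligand that triggers apoptosis, and ran from 0.39 to 1.57 in Snail and from -0.86 to -0.09 in E47 (1.51 ± 0.33, adjusted p 0.0465; 0.244 without E47 replicate 2; sum 0.62). TNFSF10 did not pass after centring (0.0512) or with 1 array enough for a replicate (0.0575).

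GPNMB, a membrane glycoprotein, ran from 0.72 to 1.69 in Snail and from -0.29 to 0.23 in E47 (1.04 ± 0.18, adjusted p 0.0270; sum 1.10). The other members of this group were RPL18, PCLAF, NDUFB3, COX7A2, RHOQ, TUBA3C and ATP6V1F, with differences from 0.81 to 1.31. NDUFB3 and COX7A2 encode subunits of the respiratory chain, and PCLAF encodes a partner of the replication clamp PCNA. All 7 had E47 below the control on every array and sums between -0.39 and 0.06, and each lost its call without any 1 of the Snail or E47 replicates. The gene outside this group that was also called higher, IMPDH2, an enzyme of purine synthesis, had overlapping arrays (1.17 ± 0.24, adjusted p 0.0424); it is named because it completes the 12.

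In the growth factor and MAPK list, 5 of 39 members tested (12.8%, beside 3.54% over all genes) were lower in Snail and none higher. The 5 were EREG, SPRY2, JUND, EGR1 and MYC, and the list's median was -0.19. MYC is also counted in the helix-loop-helix and Wnt lists. EGR1, an immediate early transcription factor, read -0.44, -0.97, -0.56 and -0.41 in Snail and 1.20, 0.85, 0.95 and 1.05 in E47. The sets lay on opposite sides of the control, a difference of -1.61 ± 0.21 (adjusted p 0.0105; sum 0.42). EREG, the EGF receptor ligand epiregulin, had the same arrangement, with -0.62 to -0.30 against 0.75 to 1.06 (-1.38 ± 0.17, adjusted p 0.00929).

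JUND, an AP-1 subunit, differed by -1.18 ± 0.17 (adjusted p 0.0164), with both clones lower in Snail (-1.07 and -1.30). SPRY2, a feedback inhibitor of receptor signalling, was above the control in both, at 0.72 in Snail and 1.70 in E47 (-0.98 ± 0.17, adjusted p 0.0270; sum 2.43). JUNB, another AP-1 subunit, had a difference of -1.26 (adjusted p 0.124), and SPRY1 ran the other way at 0.83 (adjusted p 0.0558). Under scaling to 1 spread or quantile normalization 1 member of the list was called higher.

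CCND1, the gene of cyclin D1, read -0.86, -0.95, -0.15 and -1.22 in Snail and 0.77, 0.63, 0.66 and 0.86 in E47, a difference of -1.52 ± 0.17 (adjusted p 0.00818). Of its clones, 2 gave -2.17 and -2.28. The third stood near the control (0.09 in Snail 1, 0.11 and -0.05 in the E47 replicates). In Snail 2 that clone had a value on only 1 array and so no replicate value. That 1 array still entered the gene's Snail 2 value of -0.69, which lies above both other clones (-0.71 and -1.08). The sum with E47 turned was -0.07, so this difference rests on the relative sign. In the cell cycle list, 2 of 46 members (4.35%) were lower in Snail, CCND1 and GAS1, near the 3.54% called over all genes, and the median was -0.11. In the Wnt list, 3 of 26 (11.5%) were lower (FZD6, MYC and CCND1, list median -0.12). MYC and CCND1 are counted in other lists as well. FZD6, a Wnt receptor, differed by -0.99 ± 0.21, its 2 clones by -0.59 and -1.40, and its adjusted p was 0.0586 after centring.

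VEGFA, the main growth factor of blood vessels, read 0.03, -0.54, -0.33 and -0.27 in Snail and 0.71, 1.42, 1.21 and 1.46 in E47 (-1.48 ± 0.18, adjusted p 0.00818; sum 0.92). VEGFA and HDGF were the 2 of 21 members of the angiogenesis and hypoxia list that passed (9.52%, beside 3.54% over all genes). Both were lower in Snail (list median -0.08). PPARG, the nuclear receptor of fat cell differentiation, ran from -1.49 to -0.67 in Snail and from 0.32 to 0.54 in E47 (-1.61 ± 0.19, adjusted p 0.00818; sum -0.71). PPARG and ALDOA, a glycolytic enzyme (-0.89 ± 0.19, adjusted p 0.0406), were the 2 of 16 (12.5%, beside 3.54%) called in the list of glycolysis and lipid metabolism (median -0.17). ALDOA did not pass after centring (0.0581) or with limma's trend (0.127).

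In TGF-beta and BMP signalling, 2 of 30 members passed (6.67%, beside 3.54% over all genes), both lower in Snail, with a median of -0.19. SMAD7, an inhibitor of the pathway, ran from -0.30 to 0.25 in Snail and from 0.36 to 1.04 in E47 (-0.89 ± 0.18, adjusted p 0.0361). INHBB, an activin subunit, differed by -0.83 ± 0.17 (adjusted p 0.0406), but its clones disagreed, with -1.47 and -0.19. After each array was centred on its median neither gene passed.

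Of 24 collagens and matrix proteins, LUM was higher and BGN lower in Snail (8.33% called, beside 3.54% over all genes), with a median of 0.06. BGN, the proteoglycan biglycan, ran from -1.21 to -0.79 in Snail and from -0.02 to 0.13 in E47 (-1.09 ± 0.18, adjusted p 0.0241; sum -0.97). Among 21 matrix proteases and inhibitors only PLAU passed (4.76%, median 0.08); CTSK, the collagen-cutting cathepsin K, was above the control in both, with Snail replicates of 1.05 and 1.20 and E47 replicates of 0.52 and 0.30 (0.71, adjusted p 0.0604).

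Each of the remaining lists held at most 2 calls, beside 3.54% called over all genes. By limma's unadjusted p, 748 of 3617 genes were under 0.05. TNFSF10 was the only one of 30 apoptosis genes (3.33%, median -0.08), and GNAI1 the only one of 13 G protein genes (7.69%, median -0.33). MT2A, a metallothionein, was the only one of 19 stress genes (5.26%, median -0.08), at -0.95 ± 0.20 (adjusted p 0.0414). MT2A did not pass after centring (0.057), with 1 array enough for a replicate (0.0505), with limma's trend (0.131) or without any 1 of the Snail or E47 replicates, and its difference was -0.40 to -1.51 over the alternatives that kept the signs and all replicates. None of 28 interferon and antigen presentation genes passed limma's test, with 1 at an unadjusted p under 0.05 (median -0.02). Among 17 genes of ribosomes and translation, RPL18 was higher and EEF1D lower in Snail (11.8% called; 1.31 ± 0.27, adjusted p 0.0390, and -1.24 ± 0.21, adjusted p 0.0247); the list had the highest median, 0.29, with 17.6% of members lower in Snail, and -0.01 with E47 turned. Clones of such families can bind RNA of related genes. None of 14 leukocyte markers (median -0.06) and none of 10 endothelial markers (median -0.12) passed limma's test, with 1 of each list at an unadjusted p under 0.05; the largest differences were -0.80 for SRGN (adjusted p 0.378) and -1.05 for ENG. The medians of the junction, keratin, stress, interferon and leukocyte lists were small enough to cross 0 after centring or scaling, where none exceeded 0.0942.

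**Figure D5:**
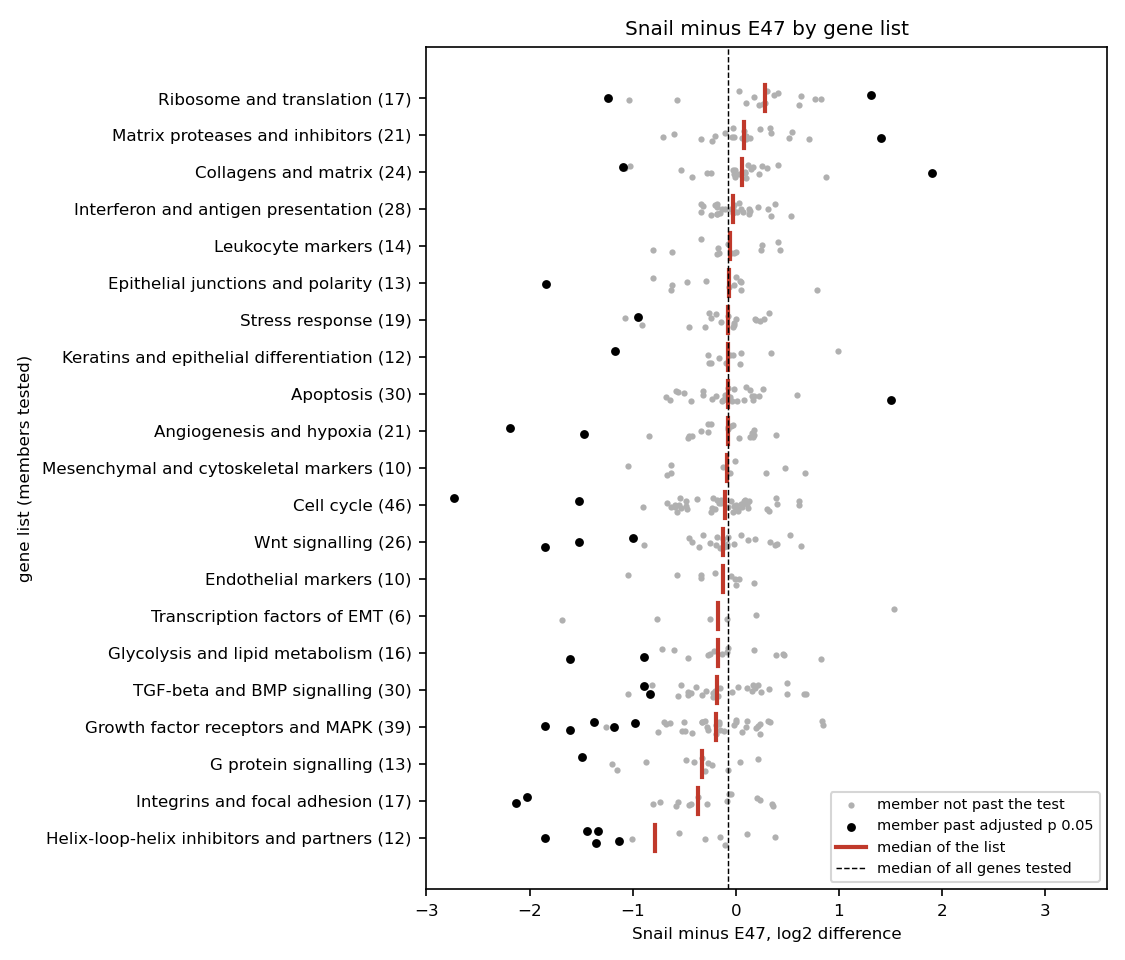
Snail minus E47 log2 difference of each tested member of 21 gene lists, with the number tested in brackets; black points passed adjusted p under 0.05, red bars are list medians and the dashed line is the median of all genes tested (-0.07). The list of helix-loop-helix inhibitors and partners has the lowest median (-0.78) and the ribosome and translation list the highest (0.29).

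The 12 genes farthest from the control on the same side of it in both transfectants, ranked after the values were seen by the smaller of their 2 mean ratios, were not told apart by the test. None of the 12 was called by limma, beside 3.54% of all genes tested, and a list this short would often hold no call at that share. By limma's unadjusted p, 2 were under 0.05 (COL1A2 and IL1RN), beside 748 of 3617 genes. The arrays of all 12 overlapped, whereas 20.1% of all genes tested had arrays that did not. This ranking favours genes with similar ratios in both transfectants. Of the 12, 5 lay above the control and 7, CDH1 among them, below it. SPARC, a matrix glycoprotein, read 5.15, 5.32, 5.32 and 5.64 in Snail and 4.76, 5.25, 4.46 and 4.29 in E47. The difference was 0.67 with a 95% interval from -2.06 to 3.39; that interval is widened by the Slug replicates (4.17 and -0.67), and in a fit of Snail and E47 alone it ran from 0.13 to 1.21 (adjusted p 0.137).

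RGS2, a G protein regulator, stood at -3.32 and -3.26 in the Snail replicates and -3.23 and -3.79 in E47 (0.22, interval -0.35 to 0.79). For SPP1, the gene of osteopontin, the interval of the difference ran from -1.11 to 0.64, and for FXYD3, an ion pump regulator, from -0.85 to 0.65. For CALD1, the gene of caldesmon, it ran from -1.12 to 2.09. The CALD1 interval is also widened by the Slug replicates (1.96 and -0.64). In a fit of Snail and E47 alone it ran from -0.26 to 1.22. COL1A2, a type I collagen chain, had replicates of 1.87 and 2.11 in Snail and 2.59 and 3.45 in E47, a difference of -1.03 (interval -1.75 to -0.30, adjusted p 0.108). IL1RN, the interleukin 1 receptor antagonist, stood at -2.97 in Snail and -2.15 in E47 (-0.83, interval -1.64 to -0.01, adjusted p 0.24).

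WNT5A, a Wnt ligand, read 1.47 and 3.76 in the Snail replicates and 0.90 and 3.53 in E47, so the samples numbered 2 lay far above those numbered 1 in both transfectants (0.40, interval -1.61 to 2.40). SCD5, a fatty acid desaturase, differed by 0.83 (interval -0.37 to 2.03). SLCO2A1, a prostaglandin transporter, and NID2, a basement membrane protein, differed by 0.07 (interval -0.99 to 1.13) and -0.03 (interval -0.90 to 0.84). SIRPA, a membrane receptor of myeloid cells and neurons, also named after its values were seen, was called lower in Snail (-1.89 ± 0.41, adjusted p 0.0465) with overlapping arrays. On SIRPA, 1 E47 array read -0.14 while the other 3 read 2.34 to 3.13, and Snail lay between 0.02 and 0.16.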

How the data were processed

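The deposited table holds log2 ratios of the 2 channels for 13056 probes on each array; per the labels the channels are the transfectant and MDCK-CMV. No scanner, background correction, centring method or rule for empty cells is stated in the sources used here. The 8 arrays had values for 10654 to 12044 probes, medians from -0.06 to 0.06 and SDs from 0.446 to 0.586. Their number limits the precision.

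Probes were named from the platform's annotation: 8047 had 1 symbol, 276 several and 4733 none, and only the first entered. Of the tested symbols, 93.3% are symbols of dog genes in RefSeq's UU_Cfam_GSD_1.0 annotation. Spots were averaged per clone and clones per gene, giving 4325 genes, 527 with several clones. Both arrays of a sample were needed for a replicate value.

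limma 3.58.1 (R 4.3.3) fitted the 6 replicate values of Snail, E47 and Slug with a mean per group (residual degrees of freedom 3, prior 5.53); Snail minus E47 was tested two-sided with Benjamini-Hochberg adjustment over 3617 genes. Intervals are 95%. The script was tested on simulated data.

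Named are the called genes with non-overlapping arrays and the 12 largest differences each way (11 existed upwards), CDH1, SNAI1, TCF3, ID1 to ID4, TWIST1, ZEB1 and TCF4, and list members that passed; other list members are named with values only where their difference was among the largest of their list. The comparison, the genes and the 21 lists were chosen with earlier results of these data known. Alternatives changed the samples fitted, block, replicates, arrays, probes, scaling, averaging, signs and variance model; the list medians under other scalings and signs were added after seeing the data.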

Additional observations from a re-analysis of the deposited data

Results flagged for a closer look

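For 23 of the named genes the 4 Snail arrays and the 4 E47 arrays lay on opposite sides of the control, and the difference between the transfectants passed limma's test (adjusted p under 0.05). Opposite sides were found for 234 (6.47%) of all genes tested and for 70 (54.7%) of the 128 called. Most named genes were chosen for passing the test, so the 23 only describe them. Above the control in Snail and below it in E47 were TNFSF10 (Snail minus E47 1.51 on the log2 scale), PLAU (1.41), PCLAF (1.05), NDUFB3 (0.99), COX7A2 (0.98), RHOQ (0.87) and TUBA3C (0.85). Below it in Snail and above it in E47 were HDGF (-2.19), ITGA6 (-2.13), EPS8 (-2.06), SRSF4 (-2.04), MYC (-1.85), UBN1 (-1.70), MACIR (-1.62), GDI2 (-1.61), PPARG (-1.61), EGR1 (-1.61), CCND1 (-1.52), EREG (-1.38), EEF1D (-1.24), JUND (-1.18), SFN (-1.17) and ID2 (-1.13). The sides follow from the assumed signs: with the signs of 1 transfectant turned, these genes would lie on the same side in both.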

How the results depend on the processing

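Beside 128 genes called as reported, the count ran from 6 to 201 with 1 replicate left out, the lowest without E47 replicate 2. It was 201 with Snail and E47 alone, 54 from the arrays titled Cy5 and 1 from those titled Cy3, 79 after centring, 198 after scaling to 1 spread, 275 after quantile normalization and 5 against a minimum difference of 0.5. With E47 turned it was 411. With the signs as deposited it was 0 by limma, with 1 gene at an unadjusted p under 0.05. Under the other 7 alternatives, the replicate block among them, it lay between 110 and 153.

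With the replicate number as a block (replicate block), 129 genes were called, 106 of them among the 128. The block ended the calls of TNFSF10, ATP6V1F, INHBB and ALDOA, and TWIST1 passed (adjusted p 0.0389). Deviations of same-numbered replicates correlated at 0.226 over genes. The difference between the Cy5-titled and Cy3-titled array of a sample correlated at 0.471 between Snail 1 and E47 1. For the other pairs of samples it correlated between -0.0105 and 0.182, and the cause was not tested. With 2 pairs and no label of a shared batch, the numbers were not taken to pair the samples.

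With E47 turned, these genes changed sign: PLAU (-0.48), PCLAF (-0.23), COX7A2 (-0.31), RHOQ (-0.17), ATP6V1F (-0.39), GAS1 (3.17), ITGA7 (2.20), CXXC5 (3.13), GDI2 (0.41), CDH1 (-4.15), TCF3 (0.65), ID1 (0.70), ID2 (0.99), ID3 (1.79), ID4 (1.54), TWIST1 (2.29), ZEB1 (1.02), SFN (0.43), BHLHE40 (1.37), INHBB (0.99), SMAD7 (0.71), FZD6 (0.53), EREG (0.50), SPRY2 (2.43), JUND (0.31), EGR1 (0.42), VEGFA (0.92), ALDOA (0.62), MT2A (1.97) and GNAI1 (2.94). With signs as deposited, these did: LUM (-0.58), TNFSF10 (-0.37), GPNMB (-0.31), MYC (0.30), DSP (0.50), SNAI1 (-0.64), TCF4 (-0.83) and BGN (0.094). Both follow from the change of sign itself. CDH1, near 0 as reported, read -0.20 on Cy5-titled arrays, -0.032 after quantile normalization and -0.13 with 1 clone; TCF4 read -0.15 with orientation as a covariate. With 1 replicate left out, CDH1 ran from -0.28 to 0.28, ZEB1 from -0.21 to 0.049 and TCF4 from -0.25 to 0.65. No other gene of the naming rule changed sign under any alternative. Of the 21 list medians, 16 kept their sign with each Snail and E47 replicate left out in turn; those of the junction, keratin, collagen, interferon and leukocyte lists did not. The cause of the other shifts was not tested, and without signal values the part of dim spots cannot be measured.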
